A study of Homo sapiens with 4 samples.

Results

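The proteasome subunit genes measured in SKBR3 cells were the rows of the count table whose gene symbol begins with PSMA, PSMB, PSMC or PSMD followed only by a number. The rule used names and no measured value, and it found 39 of the 56271 rows. They fell into 8 alpha subunits of the 20S core particle, 7 constitutive beta subunits, 3 beta subunits of the immunoproteasome, 1 beta subunit of the thymus form, 6 ATPases of the 19S regulatory particle and 14 genes named as its non-ATPase subunits. Among the last, PSMD5, PSMD9 and PSMD10 encode chaperones that help to assemble the 19S base and leave before the finished particle works.

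The proteasome is the protease that degrades proteins marked with ubiquitin in the cytosol and nucleus. Its 20S core is a barrel of stacked rings, in which the outer alpha rings gate the entry and the inner beta rings hold the active sites. The 19S particle caps the barrel, binds ubiquitin chains, removes them and unfolds the substrate with a ring of ATPases. Interferons induce PSMB8, PSMB9 and PSMB10, which replace the constitutive catalytic subunits PSMB5, PSMB6 and PSMB7 and change the peptides made for antigen presentation. When proteasome activity is low, the transcription factor NFE2L1 is cleaved, enters the nucleus and raises the transcription of many subunit genes together.

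SKBR3 is an established HER2-positive breast cancer line, and poly-A RNA of 4 cultures was sequenced. The 2 eGFP control libraries came from cells given a lentiviral vector in which the human ubiquitin C promoter drives eGFP. The 2 VIRMA-overexpressing libraries came from cells given HA-tagged VIRMA, a subunit of the N6-methyladenosine writer complex, joined to eGFP by a peptide that separates the proteins. The study reports its SKBR3 RNA sequencing for the full-length form of VIRMA, not the N-terminal isoform. Per the study's methods, eGFP-positive cells were sorted and expanded, so each line was a sorted population and not 1 clone, and both groups carried the vector and eGFP. The culture text of all 4 libraries describes a low-oxygen chamber, whereas the study treats its RNA sequencing as ordinary culture, so the oxygen level is uncertain for both groups. The study calls the libraries biological duplicates but does not say whether they were separately infected lines, so the p-values measure the spread between these libraries.

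Each library held between 81446932 and 86375474 counts. VIRMA, listed under its older symbol KIAA1429, had 710 and 682 counts in the eGFP control libraries and 3437 and 3460 in the VIRMA-overexpressing libraries (log2 fold change 2.29, SE 0.0685, adjusted p = 9.74e-26, edgeR). This gene passed the expression filter for testing, given below, through the VIRMA-overexpressing libraries alone. The 6 epithelial markers of the line were all expressed. Of the 2 hormone receptor genes examined, PGR was at 0 in every library. ESR1 was low and fell below the filter, but it was not at 0. Its counts reached 24 and 39 with eGFP alone but 48 and 44 with VIRMA overexpressed, so both VIRMA-overexpressing libraries were the higher. KRT8, EPCAM and KRT19 were lower in the VIRMA-overexpressing libraries (log2 fold change -0.51, -0.39 and -0.12). GRB7 and KRT18 were higher (0.43 and 0.08), and ERBB2 did not pass. The mitochondrial share of counts was 11.4% and 11.6% in the controls and 12.8% in both other libraries. The summed counts of blood cell and fibroblast markers also differed between the groups. The 7 erythroid markers summed to 2327 and 1691 counts in the controls against 41 and 27, with all 7 higher in both controls. HBB held most of the control counts (2137 and 1543) and was at 0 in both VIRMA-overexpressing libraries. The 12 leukocyte markers summed to 373 and 236 counts against 199 and 181, with 8 of 12 higher in both controls and MS4A1 at 0 in every library. CD3E (73 and 60 against 87 and 90) and NKG7 (6 and 9 against 26 and 15) were lower in both controls. PTPRC had 23 and 13 counts against 3 and 0. The 6 fibroblast markers summed to 1146 and 1119 counts against 722 and 753, with 3 of 6 higher in both controls. COL1A1 held most of these counts (1119 and 1092 against 713 and 741). It was tested and was lower (-0.62, adjusted p = 2.88e-07). COL1A1 passed the same filter through the control libraries alone. The part of these differences in the results was not tested.

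Most proteasome subunit genes were lower in the VIRMA-overexpressing libraries, by modest amounts. Of the 39 genes, 35 had RPKM (library-scaled counts per kilobase of exon) above 1 in at least 2 libraries and were tested. At an adjusted p below 0.05, 29 were lower, 1 was higher and 5 did not pass. Among the 29, PSMA6 passed the RPKM filter through the control libraries alone. In the whole table of 12205 tested genes, 35.9% were lower and 35.1% were higher at that threshold, so calls in both directions were common. With the further requirement of a change above 2-fold, edgeR called 0 members, against 7.46% of all tested genes. No tested member changed by more than 2-fold whatever its p, and DESeq2 and limma-voom also called 0. Of the 35 members, 33 had a negative log2 fold change, and the median was -0.40 (range -0.86 to 0.31), beside a median of 0.01 over all tested genes.

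Summed over the 39 genes, the level was 5214.1 and 5250.2 CPM (counts scaled to library size) in the eGFP control libraries and 3702.7 and 3726.2 CPM in the VIRMA-overexpressing libraries. The means were 5232.1 ± 25.5 and 3714.4 ± 16.6 CPM (SD, n = 2), so that the sum fell by 29.0%, and the libraries of each group lay close together. The values of the groups did not overlap for 31 of the 35 tested members, against 84.3% of all tested genes. The exceptions were PSMA1, PSMB10, PSMC6 and PSMD7, which with PSMD10 were the members that did not pass the test. The median of the members was not an extreme value for a gene in this comparison: 19.5% of all tested genes had a log2 fold change at or below it. In bulk RNA, fewer cells of a type and less RNA per cell cannot be told apart.

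**Figure D1:**
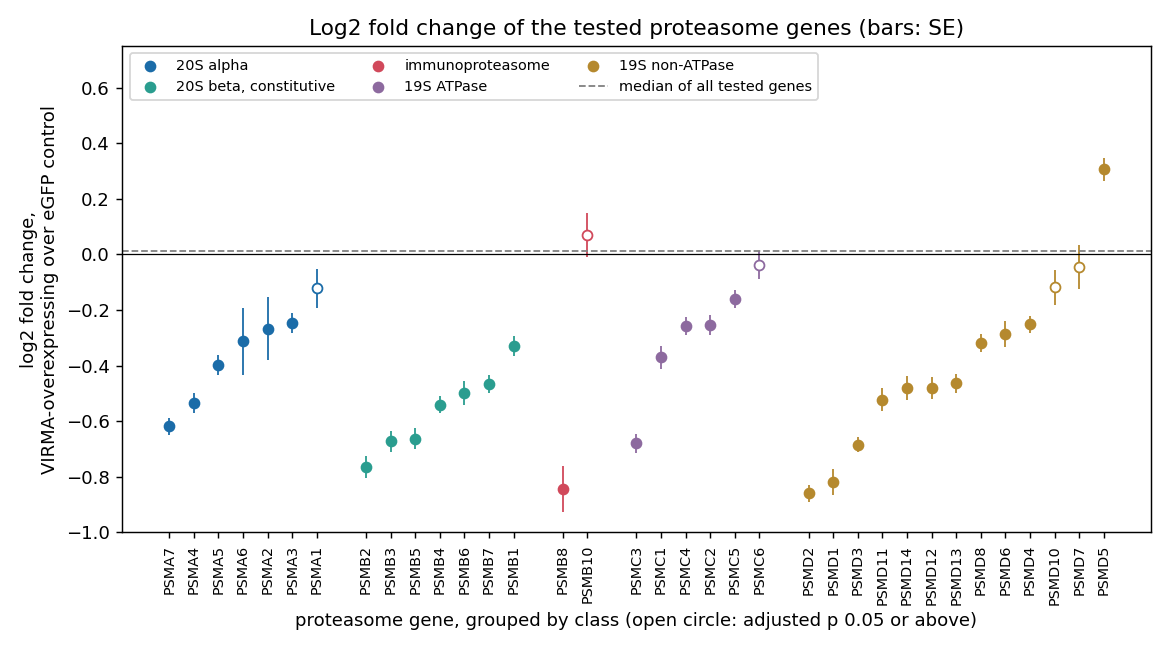
Log2 fold change (VIRMA-overexpressing over eGFP control) of the 35 tested proteasome genes, grouped by class on the horizontal axis, with bars for the standard error and open circles for genes at an adjusted p of 0.05 or above. The points lie mostly below 0, between -0.86 for PSMD2 and 0.31 for PSMD5.

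The classes differed in their medians while their ranges overlapped, and no test between classes was made. Under the RPKM filter the constitutive beta subunits had the lowest median, -0.54, with all 7 lower. The non-ATPase genes of the 19S particle followed at -0.46, the 2 tested immunoproteasome genes at -0.39, the alpha subunits at -0.31 and the ATPases at -0.26. The alpha median was the value of PSMA6, which passed the filter through the control libraries alone. Over members sharing no exonic base with another row, the median was -0.47 for 4 alpha subunits and -0.32 for 7 non-ATPase genes, so the order depended on the members counted. With the 3 other filters, which admit PSMB9, the immunoproteasome median was the lowest, at -0.89 to -0.87. Within the non-ATPase genes, the 3 subunits of the base (PSMD1, PSMD2 and PSMD4) had a median of -0.82, the 8 subunits of the lid -0.47 and the 2 tested assembly chaperones 0.09. That last value leaves out PSMD9, which was below the filter. With no filter the chaperones stood at 0.27 (PSMD5), -0.15 (PSMD10) and -0.55 (PSMD9).

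Of the 7 tested alpha subunits, which form the gated outer rings, 6 were lower and the log2 fold changes ran from -0.62 to -0.12. The 6 include PSMA6, which passed the filter through the control libraries alone. PSMA7 stood at 169.7 and 170.1 RPKM in the controls against 111.6 and 109.8 in the other group, and fell by 34.8% (log2 fold change -0.62, SE 0.0309, adjusted p = 3.4e-19). PSMA4 and PSMA5 were lower by smaller amounts, with log2 fold changes of -0.54 and -0.40, and PSMA3 changed by -0.25. PSMA1 stood at 6.97 and 7.86 RPKM against 7.23 and 6.39, so its groups overlapped (log2 fold change -0.12, SE 0.0706, adjusted p = 0.12). It passed without eGFP control replicate 1 (-0.21, adjusted p = 0.0164) and without VIRMA-overexpressing replicate 1 (-0.21, adjusted p = 0.0165).

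The calls for PSMA2 and PSMA6 were close to the threshold and rested on low values. PSMA2 stood at 1.50 and 1.49 RPKM against 1.28 and 1.20 (log2 fold change -0.27, SE 0.114, adjusted p = 0.0362), and leaving out any 1 library ended its call. PSMA6 stood at 1.07 and 1.14 RPKM against 0.854 and 0.927 (-0.31, SE 0.122, adjusted p = 0.0218), having passed the filter through the control libraries alone. Its call ended without eGFP control replicate 2 and without VIRMA-overexpressing replicate 1. PSMA1, PSMA2 and PSMA6 share 24.7%, 14.6% and 14.1% of their exonic bases with another row on the same strand, and how shared reads were counted is not stated. PSMA8, the alpha subunit known from testis, had 1 count in VIRMA-overexpressing replicate 1 and 0 in the other libraries.

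All 7 constitutive beta subunits were lower, and each had an adjusted p below 0.05. The catalytic members came first in role. PSMB5, which carries the chymotrypsin-like site, stood at 83.5 and 89.4 RPKM against 53.6 and 55.5, and fell by 36.8% (log2 fold change -0.66, SE 0.0371, adjusted p = 8.56e-18). PSMB6, with the caspase-like site, stood at 47.9 and 49.9 RPKM against 35.9 and 33.3 (-0.50, SE 0.0446, adjusted p = 3.08e-12). PSMB7, with the trypsin-like site, stood at 100.2 and 102.9 RPKM against 73.0 and 74.0 (-0.47, SE 0.0331, adjusted p = 6.69e-15). The transcripts for all 3 active sites of the constitutive core were thus lower in both VIRMA-overexpressing libraries than in either control.

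Among the structural beta subunits, PSMB1 to PSMB4, the median log2 fold change was -0.61, against -0.50 for the catalytic subunits. PSMB2 (chr1:35599544-35641844, minus strand, GRCh38) changed most, from 22.0 and 23.9 RPKM to 13.2 and 13.8, and fell by 41.1% (-0.76, SE 0.0409, adjusted p = 2.29e-18). PSMB1 changed least of the constitutive beta subunits, with a log2 fold change of -0.33, and its VIRMA-overexpressing libraries stood at 63.6 and 69.3 RPKM. PSMB4, among the most abundant members, fell from 159.1 and 153.1 to 108.2 and 106.4 RPKM.

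The 3 immunoproteasome subunits did not move as a block. PSMB8 (chr6:32840717-32844703, minus strand), the interferon-inducible counterpart of PSMB5, stood at 9.21 and 9.03 RPKM in both controls and 4.95 and 5.21 with VIRMA overexpressed. It fell by 44.3% (log2 fold change -0.84, SE 0.0821, adjusted p = 2.67e-11). PSMB10 (chr16:67934502-67937087, minus strand), the counterpart of PSMB7, stood at 9.53 and 8.91 RPKM against 10.4 and 8.97. The groups of PSMB10 overlapped and it did not pass (0.07, SE 0.0779, adjusted p = 0.427). PSMB9 (chr6:32844136-32859585, plus strand), the counterpart of PSMB6, was below the filter at 0.593 and 0.738 RPKM against 0.315 and 0.307.

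The counts behind PSMB9 were 150 and 188 against 82 and 78, and both controls were the higher. With no filter on low values its log2 fold change was -1.13 (adjusted p = 5.9e-05), the single member past both thresholds under that setting. PSMB8 and PSMB9 lie in the major histocompatibility region, and their deposited spans overlap. Both share exons with PSMB8-AS1, over 21.2% of the exonic bases of PSMB8 (opposite strand) and 5.66% of those of PSMB9 (same strand). PSMB10 shares 34.8% with CTC-479C5.12 on the same strand, which itself had 192 and 167 counts against 262 and 211. Leukocytes express PSMB8 and PSMB9, and the summed leukocyte markers stood at 4.53 and 2.85 CPM in the controls and 2.35 and 2.19 CPM in the other group. Not all of those markers were lower, and whether leukocytes were present was not tested. Any part of such cells in the lower PSMB8 and PSMB9 was not tested either.

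Set against its constitutive partner in RPKM, PSMB8 stood at 11.0% and 10.1% of PSMB5 in the controls and at 9.23% and 9.39% in the VIRMA-overexpressing libraries, a log2 difference of -0.18. PSMB9 stood at 1.24% and 1.48% of PSMB6 against 0.876% and 0.921%, a difference of -0.59. PSMB10 stood at 9.51% and 8.66% of PSMB7 against 14.2% and 12.1%, a difference of 0.53. The PSMB8 and PSMB9 ratios were thus lower, and the PSMB10 ratio higher, in both VIRMA-overexpressing libraries than in either control. For each of the 3 ratios the exact two-sided permutation p was 0.333, the smallest that 2 libraries against 2 allow, so none can be called. As a share of the summed RPKM of the 6 catalytic subunits, the immunoproteasome subunits held 7.70% and 7.16% in the controls and 8.78% and 8.17% in the other group.

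**Figure D2:**
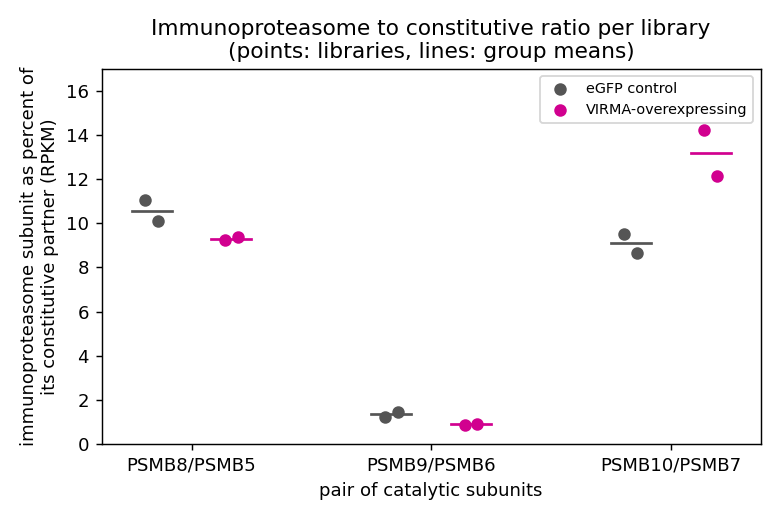
Level of each immunoproteasome subunit as a percent of its constitutive partner (RPKM) in each library, with points for libraries and lines for group means. PSMB10 over PSMB7 lies higher in the VIRMA-overexpressing libraries (14.2% and 12.1%) than in the controls (9.51% and 8.66%), whereas the other pairs lie lower.

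The thymus subunit PSMB11, which replaces the PSMB5 position in thymic epithelium, had 2 counts in 1 control library and 0 in the other 3 libraries.

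Of the 6 ATPases, which form the unfolding ring of the 19S base, 5 were lower. PSMC3 stood at 87.6 and 88.9 RPKM against 54.0 and 56.2, and fell by 37.6% (log2 fold change -0.68, SE 0.0334, adjusted p = 2.03e-19), the largest change in the ring. PSMC1, PSMC2, PSMC4 and PSMC5 had log2 fold changes of -0.37, -0.25, -0.26 and -0.16. PSMC6 stood at 5.47 and 5.74 RPKM against 5.61 and 5.30, with overlapping groups (-0.04, SE 0.0506, adjusted p = 0.505). The products of these genes sit in the ring in equal number, while their transcripts changed by unequal amounts. PSMC1 shares 75.8% of its exonic bases with NRDE2, and PSMC5 20% with FTSJ3, in both cases on the opposite strand.

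Of the 3 largest decreases among tested members, PSMD2 and PSMD1 belong to the scaffold of the 19S base, and PSMB8 lay between them. PSMD2 (chr3:184298709-184308724, plus strand), a large subunit that docks ubiquitin-like domains, stood at 63.5 RPKM in both controls and at 35.2 and 34.8 in the VIRMA-overexpressing libraries. It fell by 44.9% (log2 fold change -0.86, SE 0.0306, adjusted p = 1.64e-23). PSMD1 (chr2:231056864-231165287, plus strand), which holds the ubiquitin receptor ADRM1, stood at 12.7 RPKM in both controls and at 7.28 and 7.08, and fell by 43.3% (-0.82, SE 0.0453, adjusted p = 6.1e-18). PSMD4, the other intrinsic ubiquitin receptor of the base, changed less, from 69.8 and 68.5 to 58.5 and 57.6 RPKM (-0.25, SE 0.0319, adjusted p = 1.08e-08).

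In the lid, 7 of 8 subunits were lower. PSMD3, the most abundant of the tested members, stood at 221.4 and 220.2 RPKM in the controls and at 136.3 and 138.5 in the other group (log2 fold change -0.68, SE 0.0264, adjusted p = 1.85e-22). PSMD14, the deubiquitinase that removes the chain from the substrate, fell from 8.58 and 8.64 to 6.29 and 6.04 RPKM (-0.48, SE 0.0436, adjusted p = 4.34e-12). PSMD11, PSMD12 and PSMD13 lay between -0.52 and -0.46, PSMD8 at -0.32 and PSMD6 at -0.29. PSMD7, the partner of PSMD14 in the lid, stood at 6.23 and 6.18 RPKM against 6.50 and 5.52. Its VIRMA-overexpressing libraries lay on both sides of the controls, and it did not pass (-0.05, SE 0.0796, adjusted p = 0.613). PSMD7 shares 30.7% of its exonic bases with a row on the opposite strand.

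PSMD3 and PSMB3 lie near ERBB2 on chromosome 17, the region amplified in this line, at distances of 0.25 and 0.924 Mb from it. ERBB2 itself did not differ between the groups beyond its spread (log2 fold change 0.00, adjusted p = 0.963), and the neighbouring GRB7 was higher (0.43, adjusted p = 1.11e-16), whereas PSMD3 and PSMB3 were lower (-0.68 and -0.67). Copy number was not measured here.

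The assembly chaperones of the 19S base took different directions. PSMD5 (chr9:120815496-120842984, minus strand), which holds the base apart from the core until assembly, stood at 12.8 and 13.5 RPKM against 16.4 and 16.1, and both VIRMA-overexpressing libraries lay above both controls. It was the only tested member called higher, by 23.6% (log2 fold change 0.31, SE 0.0417, adjusted p = 5.11e-08). PSMD10, also known as gankyrin, stood at 10.2 and 10.3 RPKM against 9.59 and 9.31 (-0.12, SE 0.0634, adjusted p = 0.0939). It passed with the filter of edgeR on counts (filterByExpr) in place of RPKM (-0.16, adjusted p = 0.0333). PSMD9 was below the filter at 0.648 and 0.605 RPKM against 0.461 and 0.414, and with no filter its log2 fold change was -0.55 (adjusted p = 0.000771).

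Levels can be set against each other per length, here the deposited exonic length of each gene row. That length need not equal the length of the transcript expressed. It counts some bases more than once, as in PSMA4 (6996 bases against 3781 once merged) and PSMD2 (5453 against 5123). For the 22 tested members that share no exonic base with another row, the median in the controls was 62.4 RPKM and in the VIRMA-overexpressing libraries 43.1 RPKM. PSMD3, PSMA7 and PSMB4 led in the controls, at means of 220.8, 169.9 and 156.1 RPKM, and PSMC6 was lowest at 5.60 RPKM. By this measure, which rests on the deposited lengths, transcripts of subunits built in equal number into the particle spanned 39.4-fold. In these 22 genes, 19 were lower, 1 was higher and the median log2 fold change was -0.47. Across genes, the more abundant members had the lower log2 fold changes, with a Spearman rho of -0.38 over the 35 tested members. The same rho over all 12205 tested genes was -0.30, and genes in the same libraries are not independent replicates.

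**Figure D3:**
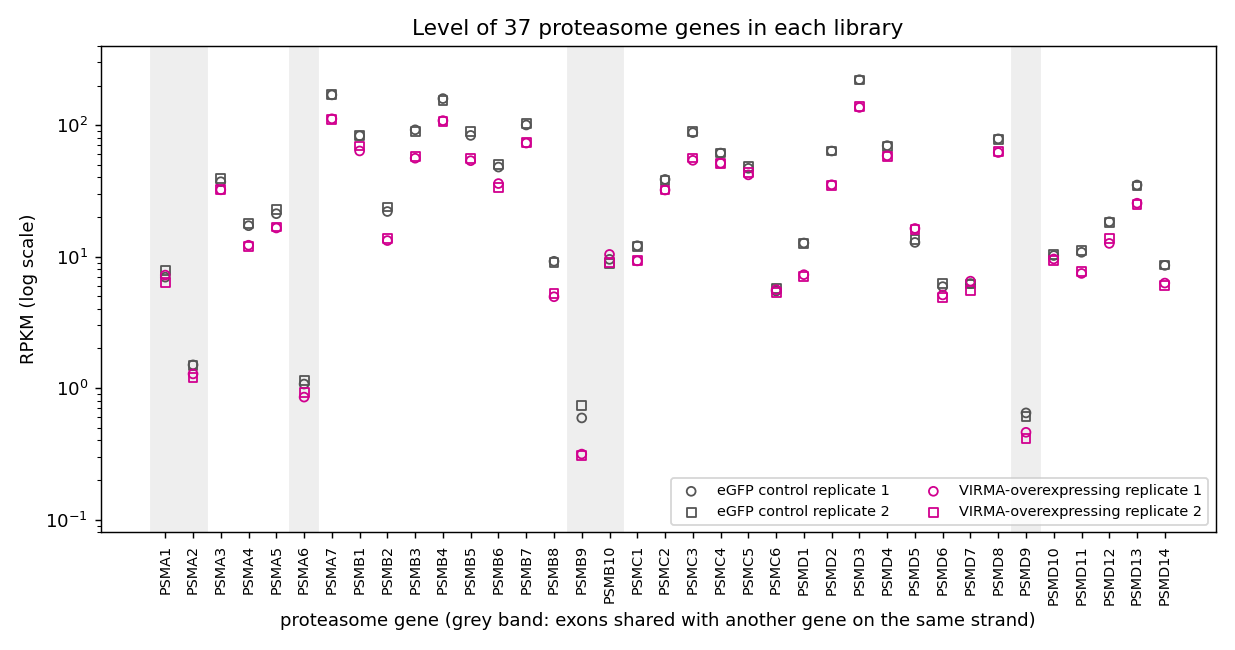
RPKM on a log scale of 37 proteasome genes in each of the 4 libraries, with grey bands marking genes that share exons with another gene on the same strand. The control libraries lie above the VIRMA-overexpressing libraries for most genes, from PSMD3 (221.4 and 220.2 against 136.3 and 138.5 RPKM) down to PSMB9, with PSMD5 the other way round.

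Promoters of the members are shown because many subunit genes are known to be transcribed together through an element bound by NFE2L1. All printed promoters hold a match to the letters marked, and any link to the changes here was not tested. Each printed stretch was taken from the RefSeq promoter table (GRCh38.p14), 5′ to 3′ on the strand of the gene. The capitals in the first 4 sequences mark the letters TGACNNNGC of that element, and in PSMB3 also CCAAT, the letters bound by NF-Y. PSMD3 (chr17:39980687-39980806, plus strand), PSMB3 (chr17:38752621-38752740, plus strand) and PSMD12 (chr17:67366638-67366757, minus strand) were lower, and PSMD5 (chr9:120842983-120843102, minus strand) was higher. The capitals in PSMB10 (chr16:67936851-67936880, minus strand) and PSMB4 (chr1:151399453-151399532, plus strand) mark GAAA, any 2 bases and GAAA again, the letters of an interferon-response element.
PSMD3: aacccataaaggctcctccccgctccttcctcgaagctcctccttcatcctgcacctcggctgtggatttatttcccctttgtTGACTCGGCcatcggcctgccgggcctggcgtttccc
PSMB3: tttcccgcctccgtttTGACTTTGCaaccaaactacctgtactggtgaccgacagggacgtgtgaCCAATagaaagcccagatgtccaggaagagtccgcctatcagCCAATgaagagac
PSMD12: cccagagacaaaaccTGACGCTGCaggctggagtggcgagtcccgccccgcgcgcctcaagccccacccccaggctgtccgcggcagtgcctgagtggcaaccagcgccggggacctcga
PSMD5: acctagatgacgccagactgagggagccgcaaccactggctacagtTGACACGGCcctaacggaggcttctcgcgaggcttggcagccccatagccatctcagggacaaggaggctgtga
PSMB10: ggtaaaggcGAAAGCGAAAgcaggaagtac
PSMB4: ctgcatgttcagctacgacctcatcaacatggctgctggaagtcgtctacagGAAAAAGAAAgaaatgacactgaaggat

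The RefSeq table held promoters for 34 of the 39 members, 41 in all, and 250 bases before each start were searched on both strands. Shares are given over all 35116 promoters and, per gene, over the 7990 tested genes with a promoter in the table. The 34 member genes include PSMA8, PSMB9, PSMB11 and PSMD9, which were not tested, so the per-gene shares compare unlike sets. TGACNNNGC stood in 8 of the 41 member promoters and in 10.9% of all promoters, or in 23.5% of the 34 member genes and 16.4% of tested genes. The 8 genes were PSMA4, PSMB3, PSMB9, PSMC5, PSMD3, PSMD5, PSMD9 and PSMD12, of which 5 were lower, 1 was higher and 2 were not tested. CCGGAAG, the letters bound by ETS factors, stood in 8 of the 41 and in 8.52% of all, or in 23.5% of member genes and 20.5% of tested genes. These member genes included the untested PSMA8 and PSMD9. CCAAT stood in 17 of the 41 and in 32.0% of all, or in 50% of member genes, among them the untested PSMB9 and PSMB11, and 41.7% of tested genes. The interferon letters stood in 3 of the 41 and in 3.02% of all, or in 8.82% of member genes and 2.99% of tested genes. They were found in PSMA4, PSMB4 and PSMB10, the last of which did not pass the test. A match describes letters in the window and is not a site, and the TGACNNNGC letters stood before members that were lower and before PSMD5, which was higher.

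NFE2L1 and its partners did not follow the subunits as a group: NFE2L1, DDI2 and NFE2L2 were higher, NGLY1 did not pass and VCP was lower. NFE2L1 stood at 83.3 and 83.4 CPM against 156.4 and 151.6 CPM (log2 fold change 0.88, SE 0.0355, adjusted p = 5.77e-22). DDI2, the protease that cleaves NFE2L1, rose from 49.0 and 48.6 to 75.8 and 74.0 CPM (0.62, SE 0.042, adjusted p = 2.05e-15). NFE2L2, a related factor of the oxidative stress response, rose from 17.6 and 19.3 to 28.3 and 25.6 CPM (0.55, SE 0.0693, adjusted p = 1.05e-08). Transcript levels do not show how much NFE2L1 protein was cleaved or in the nucleus. NGLY1, which removes sugar chains from NFE2L1, stood at 23.7 and 25.2 against 26.2 and 25.4 CPM (0.08, adjusted p = 0.279). VCP, the ATPase that draws NFE2L1 out of the membrane, fell from 324.2 and 318.7 to 228.1 and 221.9 CPM (-0.52, SE 0.0308, adjusted p = 5.85e-17). In this list of 5 genes, 3 were higher, 1 was lower and the median was 0.55, beside 35.1% higher and 35.9% lower over all tested genes.

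The other lists of genes that act with the proteasome were mostly lower. Over all 7 lists, 38 of 39 genes were tested, of which 24 were lower, 7 were higher and 7 did not pass. Over all 12205 tested genes, 35.9% were lower and 35.1% higher, and these shares apply beside each list below. With 4 to 7 tested genes, a single list says little against them. Of the 5 activators and inhibitors of the core, 4 were lower (median -0.24), led by PSME3, the nuclear activator, at 74.8 and 80.6 CPM against 53.4 and 56.8 (-0.50, adjusted p = 2.49e-12). Of the 6 assembly chaperones outside the PSMD names, 4 were lower and 1, PAAF1, was higher (median -0.38). PSMG1, which pairs with PSMG2 to order the alpha ring, stood at 48.7 and 48.6 against 37.7 and 36.0 CPM (-0.40, adjusted p = 4.97e-09), and the call for PAAF1 (0.23, adjusted p = 0.00378) ended without eGFP control replicate 2 (0.15, adjusted p = 0.116).

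Of the 7 proteins bound to the 19S particle, 4 were lower and 1 was higher (median -0.30). ADRM1, the ubiquitin receptor held by PSMD1, fell from 154.8 and 142.2 to 97.5 and 95.1 CPM (-0.62, adjusted p = 9.67e-17). ECPAS, listed as KIAA0368 and known to bind core and cap together, was the one that rose (0.37, adjusted p = 6.84e-11). Of the 5 shuttle proteins that bring ubiquitinated substrates, 3 were lower (median -0.15), with UBQLN4 at 116.9 and 111.9 against 78.5 and 78.7 CPM (-0.54, adjusted p = 3.44e-15). Of the 6 ubiquitin and E1 genes, 5 were lower and 1 was higher (median -0.38), with the polyubiquitin gene UBB at 212.6 and 192.8 against 123.8 and 118.7 CPM (-0.74, adjusted p = 5.12e-19).

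Of the 4 tested genes of interferon signalling and antigen presentation, 3 were lower and 1 was higher (median -0.33). TAP1, a peptide transporter gene, lies within the deposited span of PSMB9 on chromosome 6. It fell from 37.5 and 36.7 to 22.0 and 21.1 CPM (-0.78, adjusted p = 4.54e-14). TAP2 stood at 21.1 and 21.8 against 18.6 and 16.0 CPM (-0.30, adjusted p = 0.00048). B2M, the light chain of class I molecules, stood at 311.8 and 299.0 against 235.8 and 241.8 CPM (-0.35, adjusted p = 2.49e-12). IRF1, a transcription factor that acts on the PSMB9 and TAP1 promoters, was higher at 33.6 and 34.7 against 26.5 and 24.0 CPM (0.44, adjusted p = 8.55e-08). NLRC5 was not tested, at 1.41 and 1.87 CPM against 1.60 and 1.53.

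**Figure D4:**
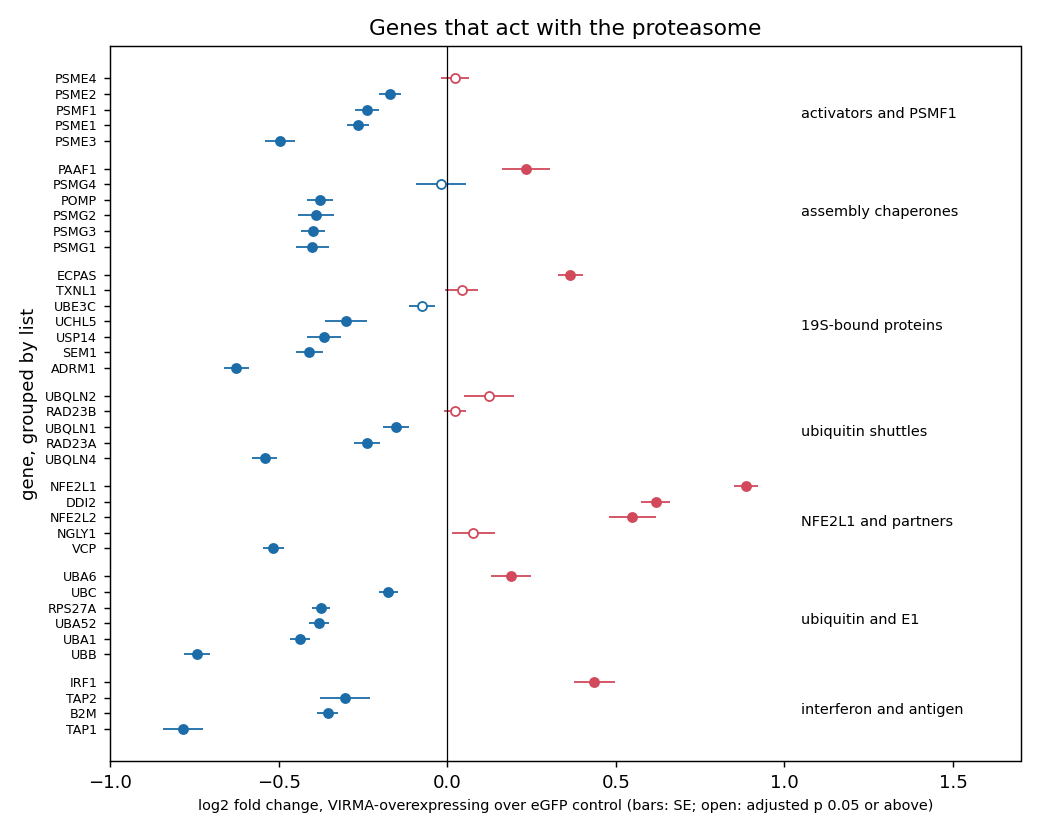
Log2 fold change with standard error of the genes that act with the proteasome, grouped by list on the vertical axis, with open points for genes at an adjusted p of 0.05 or above. NFE2L1 (0.88), DDI2 (0.62) and NFE2L2 (0.55) lie to the right of 0, while most genes of the other lists lie to the left.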

How the data were processed

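Per the labels and methods, the authors used Trimmomatic 0.39 for trimming, STAR 2.5.2a for alignment (hg38, ENSEMBL 86) and featureCounts for counting. Raw counts per gene were deposited beside exonic lengths. The strand setting and the treatment of multiply aligned reads are not given in the sources used here. In the VIRMA-overexpressing group the columns bear a number, and they were assigned as the group that remained.

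Testing was limited to genes whose RPKM, from unscaled totals, exceeded 1 in 2 or more libraries. They were compared with edgeR 4.0.16 in R 4.3.3 (TMM, quasi-likelihood, group only, Benjamini-Hochberg over 12205 genes), the method behind every adjusted p unless named otherwise. Printed CPM and RPKM use TMM-scaled library sizes. The SE was derived from the estimate and its F statistic. The test was checked on 10 sets of simulated counts. Total counts limit precision as counting error only. Exon overlap used the deposited coordinates. Alternatives were DESeq2 1.42.0, limma 3.58.1 (voom), other scalings, filters, a replicate block and leaving out each library.

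The members and gene lists were chosen with earlier results of these data known. Values in every library are given for the 4 tested members with the largest and the 4 with the smallest log2 fold change, the immunoproteasome subunits and their partners, the members that did not pass, and, per list, the gene of largest change and all NFE2L1 and interferon genes, except 1 of the latter that is not reported here and was left out of its list. Other members given with library values (PSMA2, PSMA6, PSMA7, PSMB1, PSMB4, PSMC3, PSMD3, PSMD4, PSMD14) were chosen after their values were seen.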

Additional observations from a re-analysis of the deposited data

How the results depend on the processing

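The 29 lower and 1 higher members became 27 to 32 and 1 under the other tools, scalings and filters, and 27 to 29 and 1 when 1 library was left out, the lone library then being assumed to vary like the other group. Counting only the members that share no exonic base, added after seeing the data, gave 19 lower of 22. Members past both thresholds numbered 1 (PSMB9) with filterByExpr, no filter or a 10-count minimum, since those filters admit it. Upper-quartile factors and library totals shifted all genes by a median of 0.0715 and 0.0857. Under these the median was -0.33 and -0.31 for all members, -0.24 and -0.23 for alpha, -0.47 and -0.46 for constitutive beta, -0.32 and -0.30 for immunoproteasome, -0.18 and -0.17 for ATPase and -0.39 and -0.38 for non-ATPase genes. With filterByExpr, no filter and a 10-count minimum, the medians were -0.51, -0.50 and -0.49 for all members, -0.89, -0.88 and -0.87 for the immunoproteasome and -0.30, -0.29 and -0.29 for the ATPases, and filterByExpr gave -0.52 for non-ATPase genes; more members were tested there. Members sharing no exonic base had medians of -0.47 in all, -0.47 for alpha and -0.32 for non-ATPase genes. Leaving out 1 library gave medians of -0.45 to -0.38 for all members, -0.37 to -0.28 for alpha and -0.26 to -0.25 for ATPase genes.

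The sign reversed for genes that did not pass: with upper-quartile factors and library totals PSMC6 stood at 0.033 and 0.0473 and PSMD7 at 0.025 and 0.0392, and leaving out 1 library gave -0.0795 to 0.0010 for PSMC6, -0.171 to 0.0669 for PSMD7 and -0.0396 to 0.172 for PSMB10. Among the lists, with upper-quartile factors or totals the higher genes numbered 1 for activators and 2 each for 19S-bound proteins and shuttles. Leaving out 1 library gave 0 to 1 higher for assembly chaperones and for shuttles. The cause was not tested. PSMA2 and PSMA6 lost their calls under both scalings, and PSMA2 under DESeq2 (adjusted p = 0.061). The replicate block gave 29 lower and 1 higher members and changed no call. Deviations of same-numbered libraries correlated at 0.03, so no effect shared by the numbers was seen. With 2 libraries per group, this cannot show whether same-numbered libraries were handled together.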

Other observations

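Rows named for an antisense transcript or pseudogene of a member were outside the name rule. PSMD5-AS1 had 132 and 164 counts in the eGFP control libraries and 370 and 454 in the VIRMA-overexpressing libraries (log2 fold change 1.46, adjusted p = 7.26e-09, edgeR). PSMA3-AS1 had 1680 and 1992 counts against 2898 and 2874 (0.63, adjusted p = 1.36e-10), while PSMA3 itself was lower. PSMB8-AS1 had 34 and 47 counts against 29 and 32, and PSMD6-AS2 had 40 and 28 against 56 and 25. In the deposited coordinates PSMD5 and PSMA3 shared no exonic base with any other row. PSMB8-AS1 and PSMD6-AS2 do overlap exons of PSMB8 and PSMD6, and with the strand setting not stated, reads from those shared bases cannot be told apart.

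Of 30 pseudogene rows, 15 had no count in any library. PSMD10P1 had 27 and 37 counts in the controls against 134 and 74, PSMC1P7 had 0 and 4 against 50 and 36, and PSMC1P1 had 163 and 113 against 90 and 72. These were named after their values were seen, and their values are uncertain because near-identical copies can share reads.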
